A study of Mus musculus with 20 samples.

Results

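The constitutive proteasome genes were followed here in alveolar macrophages of mice that had breathed cigarette smoke or air. They were taken from the deposited expression table by symbol: every gene named Psma, Psmb, Psmc, Psmd, Psme, Psmf or Psmg with a number, leaving out the immunoproteasome subunits Psmb8, Psmb9 and Psmb10. This gave 44 of the 13225 genes in the table; the rule itself uses symbols and no measured value. They comprise 8 20S alpha subunits, 7 20S beta subunits, 6 19S ATPases, 11 19S non-ATPase subunits, 4 activators, 1 inhibitor and 7 assembly chaperones. Psmb11 has a symbol of the same form in the annotation and was not analysed here.

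The groups were miR-155 KO mice (strain B6.Cg-Mir155tm1.1Rsky/J) in cigarette smoke, miR-155 KO mice in air, wild type (WT) C57BL/6 mice in cigarette smoke and WT mice in air, all for 4 weeks. Each group held 5 poly-A RNA-seq libraries, 20 in all. Each library carries its own code, taken here as 1 mouse; the labels do not say whether cells of several mice were pooled, so p-values measure the spread between these libraries. In all groups the cells had been sorted as positive for CD45, SiglecF and CD11c, a usual gate for alveolar macrophages. The labels give no age, and the mutation is carried in the germline, so it is not limited to macrophages.

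The proteasome is the protease that degrades most ubiquitin-tagged proteins of the cytosol and nucleus. Its barrel-shaped 20S core holds rings of alpha subunits, which gate the entrance, around rings of beta subunits, of which Psmb5, Psmb6 and Psmb7 carry the active sites. The 19S cap uses a ring of ATPases (Psmc) to unfold substrates and a set of non-ATPase subunits (Psmd) to recognise and remove ubiquitin. In immune cells interferon signalling replaces the active subunits with Psmb8, Psmb9 and Psmb10, and macrophages use the resulting immunoproteasome in handling antigens and damaged proteins.

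Levels are given as CPM, a gene's reads scaled to the depth of its library, and changes as differences of log2 CPM. Library totals ran from 6885680 to 11952088 reads. The miR-155 KO air libraries IIIb2, IIIb3 and IIIb4 had 1451 to 1645 genes without a read, against 259 to 1224 in the other 17, and where leaving them out ended a call this is stated. The locus of miR-155 is visible in poly-A RNA only through its host transcript Mir155hg, which had 8 reads over the miR-155 KO smoke group, 25 over miR-155 KO air, 48 over WT smoke and 2 over WT air. The labels do not name the deleted bases, and this transcript is no test of the genotype. Markers of alveolar macrophages were abundant, with 10 of 10 listed genes in the table and a summed level of 24375 to 28353 CPM in miR-155 KO smoke, 22636 to 27549 in miR-155 KO air, 22406 to 27857 in WT smoke and 23616 to 25514 in WT air. Chil3 alone made up most of this sum, with group means of 16869 to 18681 CPM. With smoke 3 of the 10 were called higher and 3 lower in miR-155 KO, and 2 higher and 3 lower in WT. The sort marker Siglecf averaged 223 ± 46.4 CPM in miR-155 KO smoke and 491 ± 75.3 CPM in miR-155 KO air, and 223 ± 51.0 CPM in WT smoke and 520 ± 34.8 CPM in WT air (SD, n = 5 each), and Krt79 fell with it by 0.95 in miR-155 KO and by 1.21 in WT on the log2 scale. Whether these shifts bear on the proteasome genes was not tested. Of the listed B cell and red blood cell markers, 0 were in the table.

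The promoters of 6 members are shown: 5 whose level rose with smoke in WT mice (Psmb6, Psmd8, Psmd2, Psmb4, Psmc4) and Psmb5, the active-site subunit that did not pass the test. Each is the stretch just before the RefSeq start site on GRCm38.p6, on the strand of the gene, without bases that the GENCODE gene model counts as transcribed. Capitals mark 3 motifs searched on both strands: the antioxidant response core TGACNNNGC, bound by NRF1 and NRF2, the CCAAT box CCAAT, and the ETS site CCGGAAG.
Psmb6, chr11:70525237-70525356, + strand: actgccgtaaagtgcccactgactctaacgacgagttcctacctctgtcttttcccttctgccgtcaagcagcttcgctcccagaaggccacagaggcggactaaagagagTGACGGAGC
Psmd8, chr7:29180702-29180793, - strand: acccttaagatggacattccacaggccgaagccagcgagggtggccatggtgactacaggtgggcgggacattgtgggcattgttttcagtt
Psmd2, chr16:20651532-20651651, + strand: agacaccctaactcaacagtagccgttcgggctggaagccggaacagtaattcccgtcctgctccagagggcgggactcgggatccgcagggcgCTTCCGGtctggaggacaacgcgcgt
Psmb4, chr3:94886962-94887078, - strand: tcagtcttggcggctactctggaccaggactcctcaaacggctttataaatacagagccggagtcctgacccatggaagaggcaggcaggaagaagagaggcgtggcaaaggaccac
Psmc4, chr7:28050102-28050212, - strand: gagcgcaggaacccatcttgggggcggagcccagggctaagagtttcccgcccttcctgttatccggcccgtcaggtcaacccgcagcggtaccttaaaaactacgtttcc
Psmb5, chr14:54618023-54618115, - strand: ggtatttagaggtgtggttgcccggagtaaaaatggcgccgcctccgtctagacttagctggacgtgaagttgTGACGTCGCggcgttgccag

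A RefSeq promoter of 300 bases, from 250 before to 50 after the start site, was found for 36 of the 44 members, some of which have more than 1. A member was counted as matched if any of its promoters was (39 promoters in all). The share over all promoters counts each promoter singly, so the shares set side by side below differ in unit. The ETS letters were in a promoter of 14 of the 36 members (38.9%), against 8.86% of all 32851 promoters of that length. The antioxidant response core was in 6 members (16.7%), against 12.4% of all promoters: Psmb5, Psmb6, Psmc6, Psmd9, Psmd12 and Psme4. CCAAT was in 12 members (33.3%), against 37.4% of all promoters. Of the 15 searched members whose level rose with smoke in WT mice, 5 had the ETS letters, 3 the antioxidant core and 3 CCAAT, and of the other 21 members 9, 3 and 9 had them. These are matches of letters and not measured binding sites.

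Among the members, levels per kilobase of transcript (RPKM, from CPM and the length of the annotated principal transcript) spanned a wide range. In WT air Psmb6 stood highest at 139 RPKM, followed by the activator Psme2 at 132 and Psma6 at 128. Psma8, an alpha subunit known from testis, was lowest at 2.25 RPKM, with 0 to 74 reads per library. The class medians in WT air were 89.6 RPKM for 20S beta, 75.8 for activators, 68.7 for 19S ATPases, 58.8 for 20S alpha, 53.4 for 19S non-ATPase subunits and 10.6 for assembly chaperones. Apart from Psma8, each member had at least 26 reads in each library. All 44 members were tested, and none was removed by a filter of this work.

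In WT mice, genes of the 20S core and the 19S cap rose with smoke, while the activators and the inhibitor did not pass the test. In this comparison, which asks how smoke exposure changes these macrophages, 20 of 44 members were called higher and 0 lower (limma, adjusted p under 0.05 over all genes), against 9.66% of all genes called higher. The groups did not overlap for 16 members that were higher, against 8.15% of all genes. The median log2 change was 0.28 over the members and -0.02 over all genes, and 39 of 44 members had a positive change. Summed over all members the level was 4571 ± 206 CPM in WT smoke and 3813 ± 135 CPM in WT air (SD, n = 5 each). In bulk RNA a change in the number of cells of a type and a change in RNA per cell cannot be told apart.

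**Figure D1:**
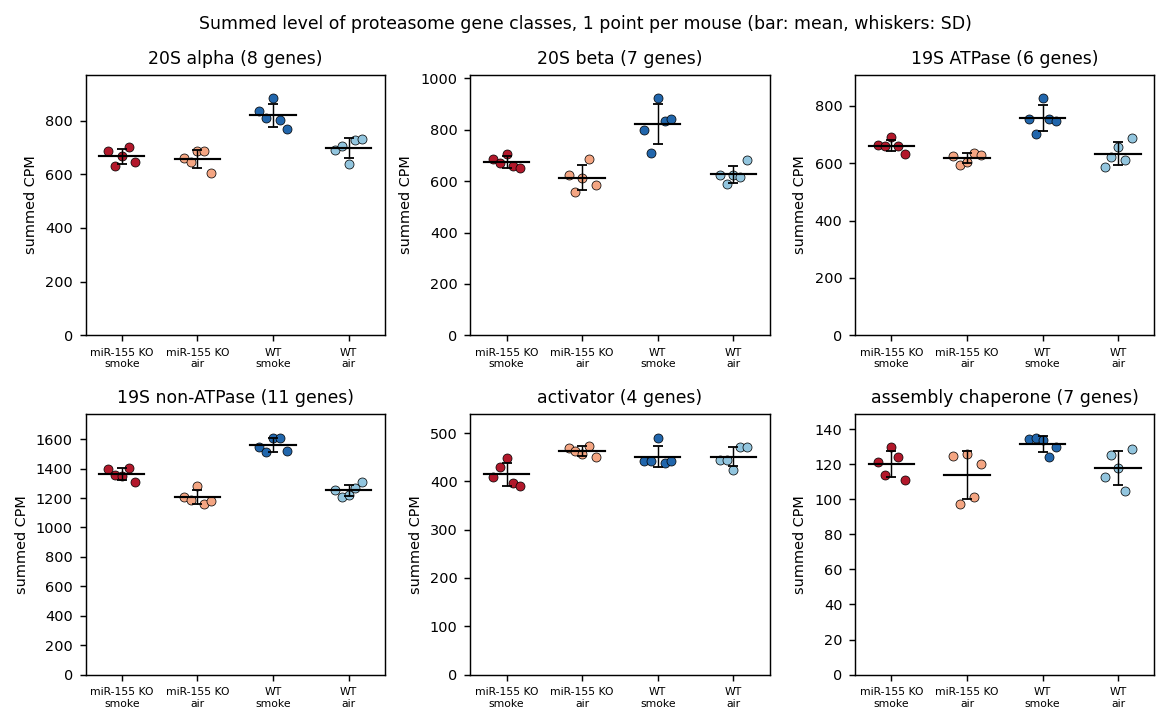
Summed CPM of the genes of 6 of the 7 classes (vertical axis, from 0) in each group, with 1 point per mouse, the mean as a bar and the SD as whiskers; the single inhibitor gene is not drawn. All 5 WT smoke mice lie above all 5 WT air mice for 20S alpha, 20S beta, 19S ATPase and 19S non-ATPase genes, and the activator sums of these groups overlap.

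Of the 20S alpha subunits, 2 of 8 were called higher with smoke in WT. Psma4 had 115, 115, 138, 120 and 105 CPM in the WT smoke mice, against 87.9, 95.1, 86.3, 85.5 and 93.1 CPM in the WT air mice. The groups did not overlap, and the log2 change was 0.40 ± 0.09 (SE; limma adjusted p = 0.0011). Psma1 averaged 164 ± 10.1 CPM in WT smoke and 133 ± 13.4 CPM in WT air (SD, n = 5 each), a log2 change of 0.31 ± 0.09 (limma adjusted p = 0.0083). The remaining members of the ring ran from 0.07 for Psma7 to 0.37 for Psma8, all positive. Psma4 has a pseudogene copy in the table, Gm6542, with 207 reads over all libraries against 17779 for Psma4.

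The beta ring held the strongest single change. Psmb6, the caspase-like active subunit (chromosome 11, 70525367 to 70527858, + strand, 6 exons), had 163, 135, 187, 181 and 196 CPM in WT smoke, against 110, 104, 112, 108 and 121 CPM in WT air. Every WT smoke mouse was above every WT air mouse, and the level was 1.54-fold higher (log2 change 0.63 ± 0.09 SE, limma adjusted p = 3.0e-06). The trypsin-like Psmb7 had 102, 97, 120, 106 and 107 CPM in WT smoke, against 73.3, 82, 88.2, 79.7 and 98.2 CPM in WT air. Only the lowest WT smoke mouse fell under the highest WT air mouse, and Psmb7 rose by 0.34 ± 0.09 on the log2 scale (limma adjusted p = 0.0079). The chymotrypsin-like Psmb5 had 41.8, 31.6, 59.1, 46.6 and 44.1 CPM in WT smoke, against 35.4, 37.8, 39.3, 36.3 and 43 CPM in WT air. Here the groups overlapped and the spread was wider in smoke, so the change of 0.19 ± 0.17 was not called (limma adjusted p = 0.46). Psmb7 shares exon bases with Nek6 on the other strand, and no source used here gives the strand setting of the read counting.

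The structural beta subunits Psmb4, Psmb2 and Psmb1 rose as well, with log2 changes of 0.45, 0.32 and 0.31. Psmb4 had 138, 114, 172, 142 and 158 CPM in WT smoke, against 107, 86, 120, 105 and 111 CPM in WT air, with 1 smoke mouse inside the range of the air mice. Psmb3 had a change of 0.25 with an adjusted p of 0.054 by limma, next to the threshold. In all 5 of 7 beta subunits were called.

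The 19S ATPases form the unfolding ring, and 4 of 6 were called higher. Psmc4 had 134, 121, 148, 127 and 132 CPM in WT smoke, against 93.5, 107, 97.1, 102 and 98.8 CPM in WT air. The groups did not overlap, and the log2 change was 0.41 ± 0.08 (SE, limma adjusted p = 0.00041). Psmc1, Psmc5 and Psmc3 rose by 0.34, 0.31 and 0.29, while Psmc6 at 0.14 and Psmc2 at 0.09 were not called.

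Among the 19S non-ATPase subunits, 8 of 11 were called higher, and all 11 changes were positive. Psmd8, a lid subunit (chromosome 7, 29174188 to 29180701, - strand), had 237, 228, 254, 285 and 252 CPM in WT smoke, against 173, 164, 146, 171 and 176 CPM in WT air. Psmd2, a base scaffold that docks ubiquitin-like proteins (chromosome 16, 20651652 to 20663414, + strand), had 320, 306, 341, 345 and 322 CPM in WT smoke, against 243, 270, 239, 254 and 245 CPM in WT air. Neither gene's groups overlapped. The log2 changes were 0.60 ± 0.08 for Psmd8 (limma adjusted p = 8.2e-07) and 0.38 ± 0.06 for Psmd2 (limma adjusted p = 1.0e-05).

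Further called non-ATPase subunits were Psmd12 (0.43), Psmd14 (0.33), Psmd13 (0.31), Psmd3 (0.30), Psmd6 (0.28) and Psmd1 (0.23). Psmd14 is the deubiquitinase of the lid, and it averaged 119 ± 6.5 CPM in WT smoke and 94.1 ± 5.2 CPM in WT air (SD, n = 5 each). Psmd1, the other large base scaffold, had 161, 158, 150, 137 and 135 CPM in WT smoke, against 122, 116, 129, 126 and 140 CPM in WT air, so its groups overlapped. The ubiquitin receptor Psmd4 (0.06) and the lid subunit Psmd11 (0.03) were lowest in the class and were not called. Psmd11 is uncertain, since the near copy A730017L22Rik took 1873 reads against 14128. Psmd2 has the copy Gm5422 with 86 reads. On the other strand Psma4, Psmd13, Psmc3, Psme1 and Psmd1 share exon bases with AY074887, Sirt3, Slc39a13, Emc9 and Htr2b, so reads of these pairs may be mixed. Psma5, Psmd3 and Psmd9 overlap noncoding genes in the same way.

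Few genes that regulate or build the particle passed the test. Of the activators, the interferon-inducible Psme1 and Psme2 changed by -0.01 and -0.06, the nuclear Psme3 by 0.15 and the large Psme4 by -0.10, and 0 of 4 were called, with 1 (Psme3) at an unadjusted p under 0.05 in limma. With quantile normalization Psme3 was called, at 0.23 (limma adjusted p = 0.019). The inhibitor Psmf1 changed by -0.13 (limma adjusted p = 0.56). Of 7 assembly chaperones 1 was called: Psmd9, a chaperone of the 19S base, had 34.2, 25.7, 30.1, 32.2 and 32.1 CPM in WT smoke, against 22.4, 22.9, 18.9, 19.7 and 25.2 CPM in WT air, and rose by 0.50 ± 0.15 (limma adjusted p = 0.014). The core chaperones Psmg1 (0.38) and Psmg4 (0.49) had changes of similar size with wide intervals of -0.13 to 0.88 and -0.10 to 1.08.

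**Figure D2:**
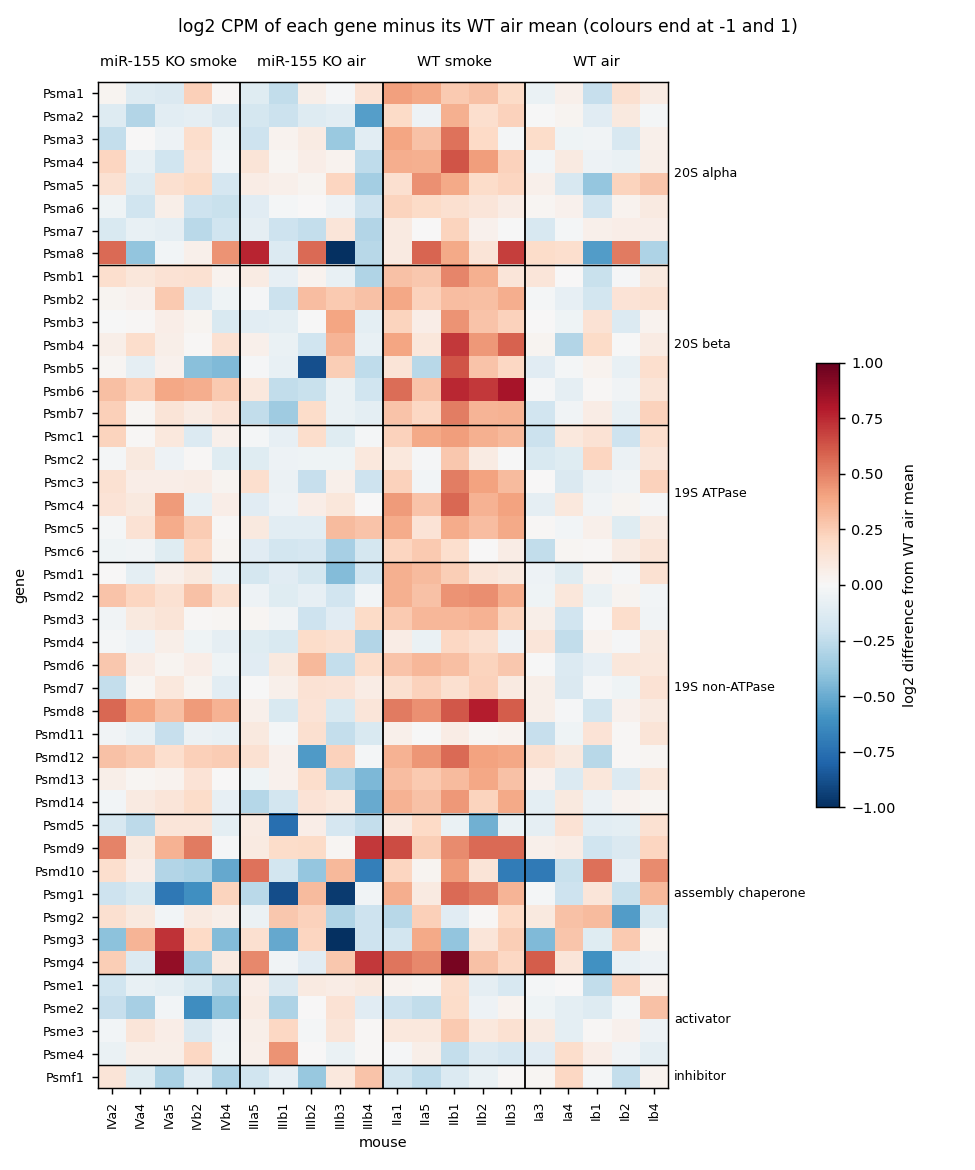
Each of the 44 genes (rows, by class) in each of the 20 libraries (columns, by group), coloured by its log2 CPM minus the mean of the 5 WT air libraries. The WT smoke columns are red over most 20S and 19S genes, while the activator genes and the inhibitor show little colour there.

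Some of the WT calls were sensitive to single libraries or to transcript length. Leaving out the WT air mouse Ib1 ended the call of Psmb2 (limma adjusted p = 0.055). The same held for Psmc3 without Ia4, IIb1 or IIb2 (0.060 to 0.081), for Psmd6 without Ia4, Ib1 or IIb1 (0.050 to 0.076) and for Psmd1 without Ia3, Ia4, Ib2, IIa1, IIa5 or IIb1 (0.050 to 0.089). Short transcripts as a whole stood higher in WT smoke: coding genes up to 2006 bases had a median log2 change of 0.09, and those above 4588 bases one of -0.18 (genes of mean log2 CPM 3 or more). Of the 44 members, 32 are no longer than 2006 bases, and their median was 0.31, and 16 of the called members are among them. With a trend on length removed from each library, 11 members were called: Psma4, Psmb1, Psmb4, Psmb6, Psmc4, Psmd1, Psmd2, Psmd3, Psmd8, Psmd9 and Psmd12. Psma1, Psmb2, Psmb7, Psmc1, Psmc3, Psmc5, Psmd6, Psmd13 and Psmd14 were not. With the trend removed, the log2 change was 0.14 for Psmb2, 0.16 for Psmd6 and Psma1, and 0.18 for Psmc5 and Psmc3. It was 0.19 for Psmb7, 0.22 for Psmd14, 0.23 for Psmc1 and 0.24 for Psmd13.

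Cycling cells were more marked in smoke. Their 10 listed genes, all measured, summed to 1096 to 1492 CPM in miR-155 KO smoke against 693 to 843 in miR-155 KO air, and to 1196 to 1342 in WT smoke against 673 to 783 in WT air, and 8 of 10 were called higher with smoke in each genotype. Markers of T and NK cells, of which Cd4 and Il7r were measured, summed to 0.734 to 6.20 CPM in miR-155 KO smoke and 0.135 to 1.34 CPM in miR-155 KO air, and to 7.58 to 41.3 CPM in WT smoke and 0.685 to 1.81 CPM in WT air. The 8 monocyte and interstitial macrophage markers summed to 75.7 to 94.9 CPM in miR-155 KO smoke, 99.6 to 131 in miR-155 KO air, 81.9 to 221 in WT smoke and 91.8 to 122 in WT air, where Ly6c2 and C1qa had no read. The 2 measured eosinophil markers, Ear6 and Siglece, summed to 119 to 161 CPM in miR-155 KO smoke and 71.3 to 123 in miR-155 KO air. In WT the sum was 126 to 193 CPM in smoke and 72.1 to 82.3 in air. The 2 genes went opposite ways, with Ear6 called higher and Siglece called lower with smoke in each genotype. Ear6 averaged 109 CPM in miR-155 KO smoke, 13.6 in miR-155 KO air, 130 in WT smoke and 17.8 in WT air. Siglece averaged 31.7, 78.6, 28.1 and 59.6 CPM in the same order. Epx and Prg2 were not in the table. The 4 measured neutrophil markers summed to 43.9 to 76.3 CPM in miR-155 KO smoke, 63.4 to 94.6 in miR-155 KO air, 39.2 to 69.2 in WT smoke and 59.9 to 85.0 in WT air, with S100a9 at 0 reads in both air groups. Most of that sum is Csf3r in air, which averaged 23.3 ± 1.6 CPM in miR-155 KO smoke and 71.1 ± 12.2 CPM in miR-155 KO air, and 17.8 ± 2.6 CPM in WT smoke and 57.5 ± 7.1 CPM in WT air (SD, n = 5 each). The other neutrophil markers stood higher with smoke: Cxcr2 and S100a8 were called higher in miR-155 KO, and Cxcr2 and S100a9 in WT. The 3 dendritic cell markers summed to at most 33.4 CPM in any library, the 6 epithelial markers to 123 to 210 CPM and Kdr, the 1 measured endothelial marker, to at most 1.74 CPM. With smoke 3 epithelial markers were called higher and 1 lower in WT, and 1 higher and 1 lower in miR-155 KO. Cdh1 averaged 108 CPM in miR-155 KO smoke, 81.8 in miR-155 KO air, 130 in WT smoke and 87.2 in WT air. Epcam averaged 24.3, 73.4, 17.0 and 71.5 CPM in the same order. The part of all these cell types in the proteasome changes was not tested.

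In miR-155 KO mice fewer members passed the test with smoke, and so did fewer of all genes (933 called higher, against 1278 in WT). Psmb6, Psmd8, Psmd2 and Psmd1 were called higher and 0 lower. These are 4 of 44 members, a share near the 7.05% of all genes called higher. The groups of these 4 did not overlap, against 4.54% of all genes, and each of the 4 had also been called in WT. The median log2 change of the members was 0.06, against -0.01 for all genes. The summed level was 3929 ± 104 CPM in miR-155 KO smoke and 3701 ± 98 CPM in miR-155 KO air (SD, n = 5 each). The air mice IIIa5 and IIIb1, which remain without the 3 libraries, had 3746 and 3582 CPM.

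Psmb6 had 136, 131, 145, 142 and 133 CPM in miR-155 KO smoke, against 120, 93.5, 94.9, 106 and 96.3 CPM in miR-155 KO air. Psmd8 had 246, 218, 204, 222 and 211 CPM in miR-155 KO smoke, against 172, 149, 182, 149 and 180 CPM in miR-155 KO air. Psmd2 had 304, 290, 279, 306 and 279 CPM in miR-155 KO smoke, against 242, 230, 236, 218 and 245 CPM in miR-155 KO air. In each of these genes all 5 smoke mice were above all 5 air mice. The log2 changes were 0.43 ± 0.09 for Psmb6 (limma adjusted p = 0.00060), 0.41 ± 0.08 for Psmd8 (limma adjusted p = 0.00028) and 0.32 ± 0.06 for Psmd2 (limma adjusted p = 0.00022). These 3 calls held under each alternative and without any single library.

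Psmd1 had 127, 118, 131, 135 and 122 CPM in miR-155 KO smoke, against 112, 117, 112, 93.6 and 110 CPM in miR-155 KO air. Its change of 0.22 ± 0.07 lay close to the threshold (limma adjusted p = 0.044). Without IIIb3, IIIb4, IVa2, IVa5, IVb2, IVb4 or the WT air mouse Ib2 the adjusted p was 0.050 to 0.13, and without the miR-155 KO air libraries IIIb2, IIIb3 and IIIb4 together it was 0.39. With the letter in the mouse codes (a or b) as a covariate it was 0.074. In the fit without IIIb2, IIIb3 and IIIb4, 5 members were called, with Psmb7 (0.42) and Psmd14 (0.29) in place of Psmd1.

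Psmb5 had 38.7, 35.9, 39.3, 28.6 and 28.1 CPM in miR-155 KO smoke, against 38, 36.3, 20.8, 45.4 and 32 CPM in miR-155 KO air. Its groups overlapped, with the lowest value in IIIb2, and the change was 0.01 with a 95% interval of -0.33 to 0.36. Psmb7 had 98.7, 85.1, 91.7, 89 and 92.1 CPM in miR-155 KO smoke, against 70.7, 65.7, 95.3, 80.1 and 78.5 CPM in miR-155 KO air, and overlapped through IIIb2, the 1 air mouse above 85.1 CPM.

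The other members called in WT had changes from -0.09 to 0.27 here, none of them called. Psma4 changed by 0.01 ± 0.09, Psmb2 by -0.09 ± 0.10, Psmb4 by 0.08 ± 0.10, Psmc4 by 0.13 ± 0.08 and Psmd9 by 0.05 ± 0.15. Psmb7 at 0.24 (limma adjusted p = 0.085) and Psmd12 at 0.27 (limma adjusted p = 0.10) were nearer to the threshold, and Psmd14 at 0.20, Psmb1 at 0.19 and Psmd13 at 0.17 were close to the called Psmd1 in size. The 4 activators all had negative changes, with Psme2 at -0.28 and Psme1 at -0.20 and limma adjusted p of 0.067 and 0.10. With the length trend removed, Psme1 and Psme2 were called lower.

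**Figure D3:**
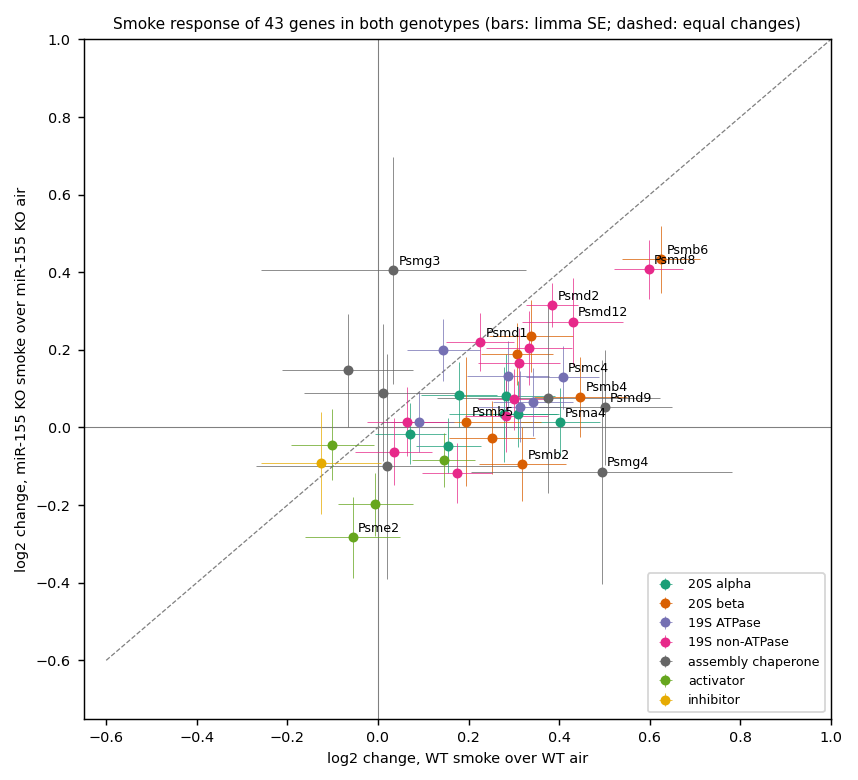
Log2 change with smoke in miR-155 KO mice against that in WT mice for 43 genes, with lines of equal change and of no change. Psma8 is left out for its few reads. Colour gives the class and bars give the limma SE, and calls are not marked. Most points lie on the WT side of the line of equal change, and Psmb6, Psmd8 and Psmd2 are far from 0 in both genotypes.

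The difference between these smoke responses was tested directly. Of the 44 members, 0 were called (limma), as were 0% of all genes. An unadjusted p under 0.05 was found for 10 members (22.7%), against 9.84% of all genes. The smoke change was larger in WT than in miR-155 KO for 37 of 44 members, with a median difference of -0.18 (miR-155 KO minus WT), while 47.2% of all genes had a negative difference and their median was 0.02. Short transcripts shared this direction: coding genes up to 2006 bases had a median difference of -0.10, and those above 4588 bases one of 0.11 (genes of mean log2 CPM 3 or more). Of the 44 members, 32 are no longer than 2006 bases. Without IIIb2, IIIb3 and IIIb4 the difference was negative for 38 of 44 members with a median of -0.17, and an unadjusted p under 0.05 was found for 6 members. Over all genes of that fit 51.2% had a negative difference, the median was -0.01, and 1029 of 13225 genes had an unadjusted p under 0.05. The smallest p values belonged to Psma4, with a difference of -0.39 (95% interval -0.64 to -0.13, limma adjusted p = 0.30), and Psmb2, with -0.41 (-0.69 to -0.14, limma adjusted p = 0.30). For Psmd1 and Psmd2 the differences were -0.01 (-0.22 to 0.21) and -0.07 (-0.24 to 0.10).

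Under smoke 3 alpha subunits were lower in miR-155 KO than in WT mice, and no other member passed the test. Psma2, Psma4 and Psma6 were called lower and 0 members higher, 3 of 44, against 0.688% of all genes called lower. The groups did not overlap for 13 members that were lower, against 2.54% of all genes. Of the 44 members 40 had a negative change, against 54% of all genes, and the medians were -0.22 for the members and -0.02 for all genes.

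Psma4 had 104, 84.9, 78.2, 98.9 and 87.7 CPM in miR-155 KO smoke, against 115, 115, 138, 120 and 105 CPM in WT smoke. Psma2 had 107, 95.5, 109, 110 and 106 CPM in miR-155 KO smoke, against 133, 113, 150, 132 and 137 CPM in WT smoke. Psma6 had 130, 116, 139, 116 and 114 CPM in miR-155 KO smoke, against 155, 152, 149, 145 and 141 CPM in WT smoke. In all 3 genes every miR-155 KO smoke mouse was below every WT smoke mouse. The log2 changes were -0.39 ± 0.09 for Psma4 (limma adjusted p = 0.016), -0.33 ± 0.08 for Psma2 (limma adjusted p = 0.036) and -0.28 ± 0.07 for Psma6 (limma adjusted p = 0.042).

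These calls were close to the threshold. Psma4 lost its call without IIb1, IVa4 or IVa5 (limma adjusted p 0.053 to 0.087). Psma2 lost it without any 1 of 9 libraries (IIa1, IIb1, IIb2, IIb3 or any miR-155 KO smoke mouse; 0.055 to 0.15) and with the letter in the mouse codes as a covariate (0.057). Psma6 lost it without any 1 of 10 (Ia3, Ia4, Ib2, IIa1, IIa5, IIb1, IIb2, IVa4, IVb2 or IVb4; 0.050 to 0.12). The direction held each time, and the number of members called lower ran from 0 with no trend in the variance to 22 with array weights, with 9 when the 3 miR-155 KO air libraries were left out of the fit. Short transcripts were lower as a whole in this comparison, with a median of -0.11 up to 2006 bases and 0.07 above 4588 bases, and with the length trend removed 1 member was called and the members' median was -0.14.

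Near the threshold of this comparison were Psmb6 at -0.32 (limma adjusted p = 0.056), Psma1 at -0.31 (0.060) and Psmb4 at -0.36 (0.072). Psmb5 stood at -0.37 with overlapping groups (limma adjusted p = 0.31). All 8 alpha, 7 beta, 6 ATPase and 11 non-ATPase genes had a negative value, of which the 3 named alpha subunits were called. The core chaperone Psmg1 had the lowest value, -0.67 with an interval of -1.17 to -0.16 (limma adjusted p = 0.18), and Psme4 the highest, 0.15 (limma adjusted p = 0.54).

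No member passed the test between genotypes in air. With limma 0 of 44 members were called, against 0.416% of all genes in either direction, and 3 (6.82%) had an unadjusted p under 0.05, a smaller share than the 11.6% of all genes. The median was -0.04 for the members and -0.04 for all genes. The summed level was 3701 ± 98 CPM in miR-155 KO air and 3813 ± 135 CPM in WT air. Psmb6 averaged 102 ± 10.9 CPM in miR-155 KO air and 111 ± 6.3 CPM in WT air (SD, n = 5 each), with a log2 interval of -0.30 to 0.05.

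**Figure D4:**
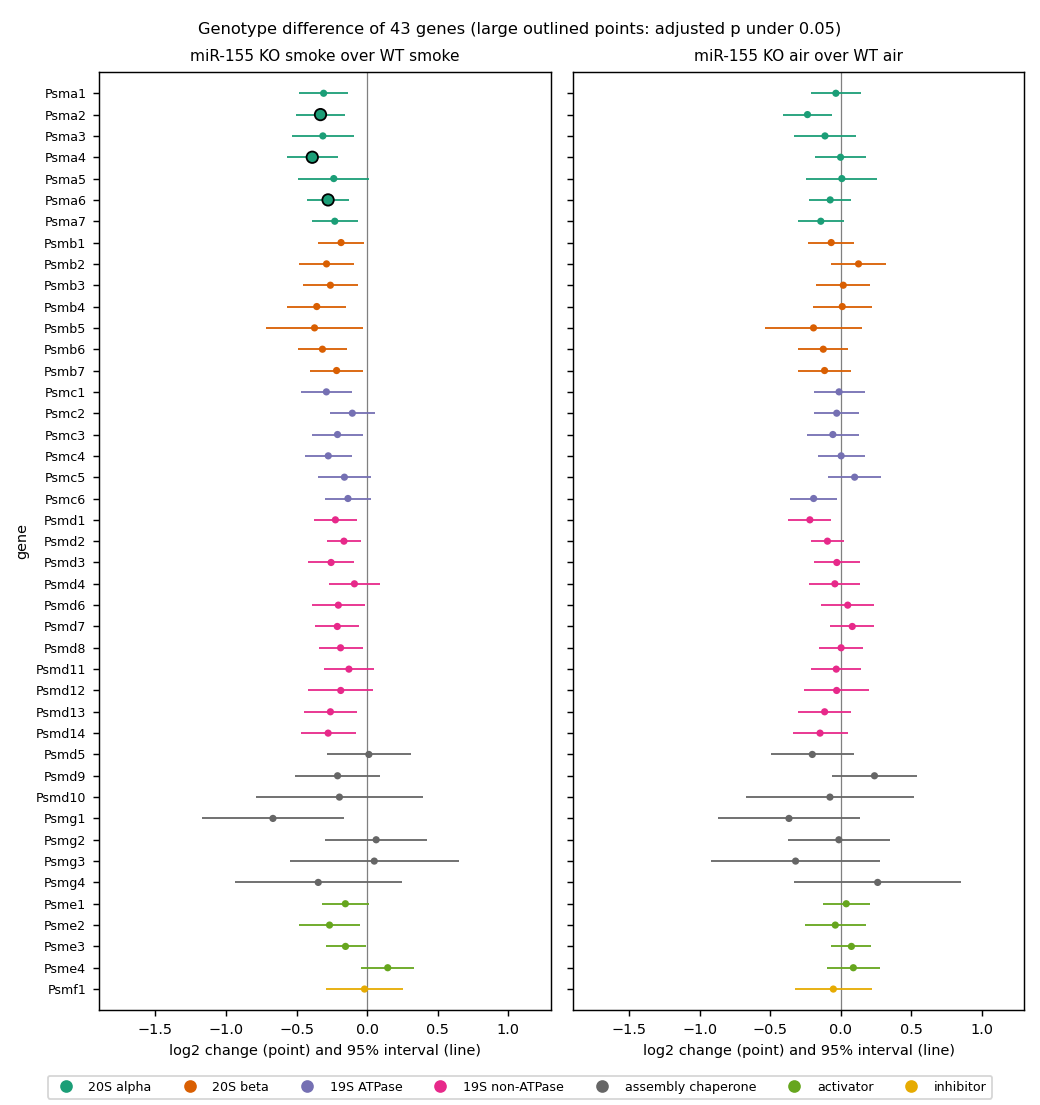
Log2 change of 43 genes between genotypes, miR-155 KO over WT, in smoke (left) and in air (right), with the 95% interval of limma as a line and the class as colour; Psma8 is left out for its few reads. In smoke nearly all points are left of 0 and Psma2, Psma4 and Psma6 are outlined as called, while in air the points lie on both sides.

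The active subunits were set beside their immunoproteasome counterparts, which the rule left out. With smoke in miR-155 KO mice Psmb10 fell by 0.44 and Psmb9 fell by 0.37 on the log2 scale (limma adjusted p = 0.0041 and 0.047). Without IIIb2, IIIb3 and IIIb4 neither was called, with -0.25 for Psmb10 (limma adjusted p = 0.29) and -0.32 for Psmb9 (0.19). Psmb9 also lost its call without any 1 miR-155 KO smoke mouse, any 1 WT air mouse, or IIIb1, IIIb2, IIIb3, IIa5 or IIb2 (0.050 to 0.13). Its call further depended on the model. It was lost with quantile normalization, median centring, median-of-ratios scaling or log2(CPM + 5) (limma adjusted p 0.050 to 0.090). The same held with no trend in the variance, array weights, voom weights, the letter covariate or only the groups compared (0.063 to 0.11). Psmb10 averaged 67.3 ± 7.4 CPM in miR-155 KO smoke and 91.6 ± 11.2 CPM in miR-155 KO air, and Psmb9 34.0 ± 2.0 CPM in miR-155 KO smoke and 44.8 ± 9.0 CPM in miR-155 KO air (SD, n = 5 each). In WT the changes were -0.14 for Psmb10, -0.15 for Psmb9 and -0.05 for Psmb8, and 0 of 3 were called or had an unadjusted p under 0.05 in limma.

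The log2 ratio of Psmb9 to Psmb6 was -2.01 ± 0.13 in miR-155 KO smoke and -1.21 ± 0.36 in miR-155 KO air, and -2.17 ± 0.24 in WT smoke and -1.39 ± 0.14 in WT air (SD, n = 5 each). Psmb9 was thus lower relative to Psmb6 with smoke by 0.81 and 0.78 log2 units, and no smoke mouse reached an air mouse of its genotype. The ratio of Psmb10 to Psmb7 was -0.45 ± 0.14 in miR-155 KO smoke and 0.23 ± 0.10 in miR-155 KO air, and -0.47 ± 0.13 in WT smoke and 0.01 ± 0.22 in WT air. In an exact 2-sided permutation test each of these 4 smoke differences had p = 0.0079, the smallest that 5 against 5 allows, and 0.024 after adjustment over the 12 ratio tests run. Each ratio shares the numerator or denominator with a gene already described, so it is no separate evidence for that gene.

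The ratio of Psmb8 to Psmb5 was 1.40 ± 0.16 in WT smoke and 1.64 ± 0.10 in WT air, a difference of -0.24 with an exact permutation p of 0.024 and 0.057 after adjustment. In miR-155 KO mice it was 1.62 ± 0.16 in smoke and 1.81 ± 0.53 in air, and the air group held 1 mouse at 2.71. Between genotypes 0 of 6 ratio comparisons passed, and their adjusted exact permutation p ran from 0.13 to 0.77. Without IIIb2, IIIb3 and IIIb4 the miR-155 KO differences were -0.70 for Psmb9 to Psmb6 and -0.67 for Psmb10 to Psmb7. Their exact permutation p was the smallest that 5 against 2 mice allow, and neither passed after adjustment, which says nothing of their stability. Without the miR-155 KO smoke mouse IVb2 the Psmb9 to Psmb6 difference was -0.76 with an adjusted exact permutation p of 0.057. Psmb9 shares exon bases with Tap1 on the other strand.

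**Figure D5:**
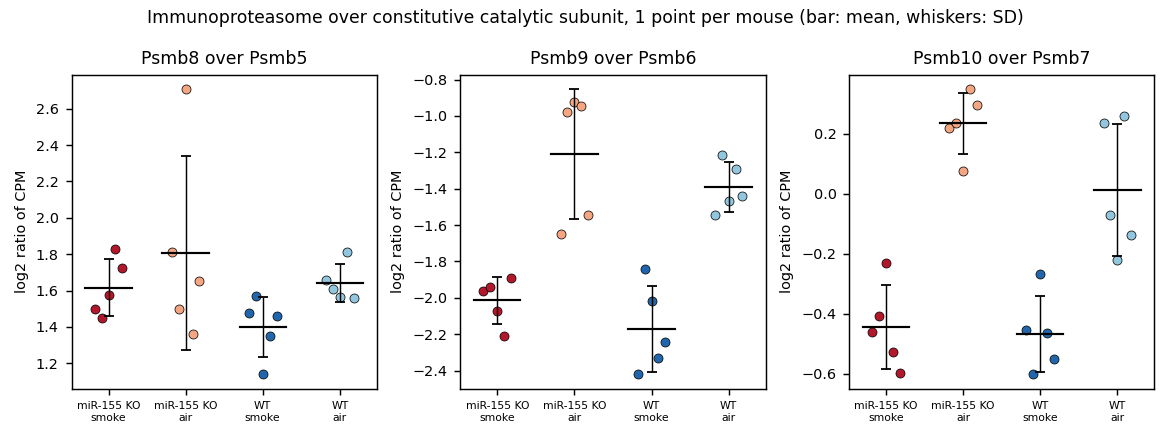
Log2 ratio of CPM of each immunoproteasome subunit to its constitutive counterpart (vertical axis) by group, with 1 point per mouse, the mean as a bar and the SD as whiskers. For Psmb9 over Psmb6 and Psmb10 over Psmb7 all smoke mice lie below all air mice of the same genotype.

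Genes around the proteasome did not move as 1 block. Of 9 measured assembly and late 26S genes, Pomp, the maturation factor of the core, rose with smoke in both genotypes. It averaged 139 ± 7.7 CPM in miR-155 KO smoke and 110 ± 6.8 CPM in miR-155 KO air, and 152 ± 12.1 CPM in WT smoke and 115 ± 12.1 CPM in WT air (SD, n = 5 each). Its log2 changes were 0.35 in miR-155 KO (limma adjusted p = 0.0018) and 0.40 in WT (limma adjusted p = 0.00026). Ecpas, an adaptor that binds the assembled particle, fell in WT by 0.41 (limma adjusted p = 0.0044) and stood at -0.28 in miR-155 KO, where it was not called. With the length trend removed its WT change was -0.26 (limma adjusted p = 0.053), and without IIIb2, IIIb3 and IIIb4 it was called in miR-155 KO at -0.31 (0.029).

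NRF1 drives proteasome genes when the particle is inhibited. Of 6 listed genes around NRF1 and NRF2 (Nfe2l1, Ddi2, Ngly1, Nfe2l2, Keap1 and Sqstm1), 0 were called higher in any comparison. With smoke 2 of the 6 had a positive change in each genotype. These are RNA levels, and the activity of NRF1 was not tested. Nfe2l1, which encodes NRF1, changed by 0.01 with smoke in WT and -0.07 in miR-155 KO. Ngly1, the deglycosylase that processes NRF1, fell by 0.34 in WT (limma adjusted p = 0.026), a call lost without Ia3, Ib2, IIb1 or IIb2 (0.054 to 0.098). Sqstm1, the autophagy receptor for ubiquitinated cargo, averaged 481 ± 38.1 CPM in miR-155 KO smoke and 613 ± 44.3 CPM in miR-155 KO air, and 474 ± 23.4 CPM in WT smoke and 649 ± 35.7 CPM in WT air. Its log2 changes were -0.35 and -0.45, with limma adjusted p of 0.00021 and 3.8e-06.

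Of 13 shuttle and p97 genes, the segregase Vcp (0.25), its cofactor Faf1 (0.40) and Zfand2a (0.33) rose with smoke in WT, and the ubiquitin shuttles Ubqln1 (-0.36) and Ubqln2 (-0.47) fell. In miR-155 KO mice Zfand2a was the 1 called gene of this list, at 0.32 (limma adjusted p = 0.043), but at 0.09 (0.75) without IIIb2, IIIb3 and IIIb4, and its call was also lost without any 1 of IIIb1, IIIb2, IIIb3, IIIb4, IVa4, IVa5 and IVb4 (0.070 to 0.12). In WT single libraries ended the call of Vcp (IIb1, 0.061), Faf1 (Ia4, 0.062) and Zfand2a (Ib2, Ib4, IIa5, IIb1 or IIb2, 0.052 to 0.066). With no trend in the variance Zfand2a was not called in WT (limma adjusted p = 0.075) or in miR-155 KO (0.11). Its miR-155 KO call was also lost with array weights, voom weights, the letter covariate or only the groups compared (0.074 to 0.13).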

How the data were processed

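The authors deposited log2 CPM values of 13225 genes in 20 libraries, as 1 table named for limma-voom. The labels' protocols give a miRNeasy Mini extraction and 25 ng of RNA into poly-A selection (TruSeq mRNA). Per the submitters' processing notes, STAR 2.6.0c and limma were used with GRCm38.p6. For the read counter, annotation, strand setting and low-count filter: not given in the sources used here. Undoing the voom formula, which adds 0.5 to a gene's reads and 1 to the total, gave back whole reads within 0.001 for all values, and each gene had at least 14 reads over all libraries. Totals were 6885680 to 11952088 reads, so a floor of 3 reads is under 1 CPM. 

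The main test was limma 3.58.1 (R 4.3.3) with 1 mean per group and a variance trend, run on every gene of the deposited log2 CPM table. For each of 5 contrasts p-values received Benjamini-Hochberg adjustment across the table, with a call at an adjusted p under 0.05. The procedure was tested on simulated data. Errors beside log2 changes are limma standard errors. CPM is 2 to the power of the deposited log2 CPM. Ratios of catalytic subunits were compared by exact 2-sided permutation of mice. RPKM used the GENCODE M21 principal transcript. Copies were sought with blastn 2.17.0 at 95% identity over 200 bases. Python 3.11.15, pandas 2.3.3, numpy 2.4.6 and matplotlib 3.10.9 did the rest. Promoters are from RefSeq.

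The members and lists were chosen with earlier results of these data known. Named members are those called in a comparison, Psmb5, Psmb6 and Psmb7, the extremes of each class and single values far from their group. From the lists, called genes are named, and others (Nfe2l1 and those near a threshold) were chosen after their values were seen. Alternatives were other variance priors, normalizations, filters, pseudocounts, weights, a covariate, removal of a length trend and leaving out libraries. The list of ubiquitin and activation genes is not reported here.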

Additional observations from a re-analysis of the deposited data

Results flagged for a closer look

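In the 220 groups of 5 mice scanned, 13 single values stood apart by Dixon's gap test at 0.71 of the group's range. Chance gives about 1 in 20, so a count of this size is near what chance alone gives. The scan covered the members, the class sums and the ratios, which share genes. In miR-155 KO smoke the low values were Psma2 in mouse IVa4 (6.58 log2 CPM, the others 6.73 to 6.78) and Psmd11 in mouse IVa5 (6.06, the others 6.22 to 6.25). In miR-155 KO air mouse IIIb4 was low for Psma2 (6.32, the others 6.66 to 6.76) and Psma4 (6.23, the others 6.50 to 6.61) and high for Psmd9 (5.14, the others 4.46 to 4.64). In the same group mouse IIIb3 was low for Psma8 (-3.78, which is no read, the others 1.60 to 2.64) and Psmd1 (6.55, the others 6.79 to 6.87) and high for Psmb3 (6.55, the others 6.05 to 6.15). Mouse IIIb1 of that group was low for Psme1 (6.77, the others 6.98 to 7.01) and high for Psme4 (6.92, the others 6.41 to 6.52). In WT smoke the summed activator level of mouse IIb1 was high (490.7 CPM, the others 438 to 443). In WT air Psma6 was low in mouse Ib1 (6.87, the others 7.07 to 7.15) and Psme2 high in mouse Ib4 (7.27, the others 6.85 to 6.96).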

How the results depend on the processing

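The count of called members with smoke in WT, 20, ran from 17 to 22 with single libraries left out was 28 with quantile normalization and 24 with median-of-ratios scaling, and was 11 with the length trend removed. In miR-155 KO the count of 4 ran from 3 to 6, and was 7 with quantile normalization and 7 with median-of-ratios scaling, which was added after seeing the data. Between genotypes in smoke the count of 3 ran from 0 to 5 with single libraries left out. It was 0 with no trend in the variance, 5 with quantile normalization, 1 with median centring, 1 with median-of-ratios scaling, 5 with a minimum mean log2 CPM of 3, 5 with log2(CPM + 1), 9 with only the groups compared, 22 with array weights, 5 with voom weights, 1 with the length trend removed and 9 without IIIb2, IIIb3 and IIIb4. Genotype in air and the difference of responses gave 0 in each setting. The ratio tests called 4, ran from 3 to 5 with single libraries left out and gave 2 without those 3 libraries, where 2 air mice are too few to pass. No called member changed sign. edgeR, DESeq2 and TMM were not run: tests were fitted to the deposited log2 values. No paired analysis was possible because each mouse code occurs once. Depth limits Psma8, Psmg4, Psmg3, Psmd10 and Psmg1 most.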
